A study of Rattus norvegicus with 15 samples.

Results

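Femurs of ovariectomised rats given an extract of Psoralea corylifolia together with walnut (Juglans regia) were compared with femurs of ovariectomised rats given the Psoralea extract alone. The comparison uses 6 of the 15 RNA sequencing libraries of the study, chosen by their titles: 3 of group PJ (both extracts) and 3 of group P (Psoralea). It asks what adding walnut to Psoralea does to gene expression in bone that has lost ovarian hormones, a rat model of osteoporosis after the menopause. All 6 libraries came from female SD (Sprague-Dawley) rats that were 8 weeks old at the start. The rats had both ovaries removed, recovered for 6 weeks and were then treated for 8 weeks by daily oral gavage. Group P received 2.4 g per kg per day. Group PJ received 4.0 g per kg per day of the combined extract, and the labels do not say how much of each plant that dose held. The group given walnut alone (J) received 1.6 g per kg per day, and the untreated ovariectomised group (OVX) received saline. Whether the libraries of a group are 3 different rats is not in the labels, so a p-value here speaks only of spread among libraries, which may be technical.

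A whole femur holds more than bone cells. Osteoblasts make the mineralised matrix, osteocytes sit within it and osteoclasts resorb it, while the marrow holds the precursors of red cells, platelets and leukocytes as well as fat cells. The joint ends add cartilage, and muscle and tendon attach to the outer surface. Loss of estrogen speeds resorption, and Psoralea and walnut are both used in traditional Chinese medicine for bones and kidneys.

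Expression is given as FPKM, the fragments of a gene per kilobase of its length, scaled to the size of the library. Library totals recovered from those values were, in units of 1000000 reads, 38.6 to 51.9 in P and 50.5 to 61.0 in PJ. Bone genes were detected in all 6 libraries, with Col1a1, the main collagen chain of bone, between 98.6 and 1763 FPKM. By the median over all pairs, libraries of one group were not closer to each other than to the other group. The root mean square difference between 2 libraries over genes had a median of 0.906 in the 3 pairs within P, 0.729 in the 3 pairs within PJ and 0.544 in the 9 pairs across groups, on the log2(FPKM + 1) scale. P 2 and PJ 3 stood apart, and these medians within groups rest on pairs that hold one of them. Among the other libraries, PJ 1 and PJ 2 differed by 0.402 and P 1 and P 3 by 0.444. The pairs of these libraries across groups differed by 0.415 to 0.505. P 2 had 677 genes more than 2-fold above the median of the other 5 libraries and 1389 more than 2-fold below it, PJ 3 had 501 and 689, and the other 4 libraries had 121 to 253. Mitochondrial genes held 36.8% of the FPKM of P 2 and 11.4% to 17.9% of that of the other 5. The results that lead each paragraph were therefore also computed without these 2 libraries.

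**Figure D1:**
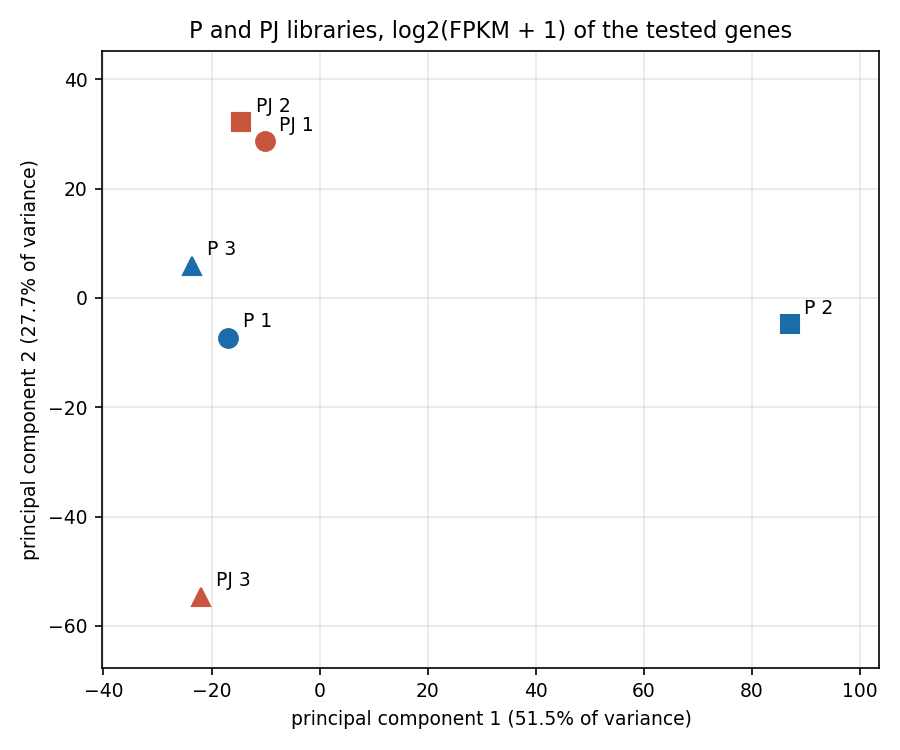
Position of the 3 P (blue) and 3 PJ (red) libraries on the first 2 principal components of log2(FPKM + 1) over the 14530 tested genes, with the percentage of variance on each axis. P 2 lies alone on component 1 (51.5% of the variance) and PJ 3 at the far end of component 2 (27.7%), while on component 2 PJ 1 (28.6) and PJ 2 (32.2) lie above P 1 (-7.26) and P 3 (5.88).

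No gene passed the test between PJ and P. Of 14530 genes with a mean of at least 1 FPKM over the 6 libraries, limma called 0 (0%) at an adjusted p under 0.05, and the smallest adjusted p was 1.00. At an unadjusted p under 0.05 there were 87 genes higher in PJ (0.599%) and 65 lower (0.447%). A second tool, voom of limma on the recovered reads, also called 0 genes, with 134 at an unadjusted p under 0.05. The 3 PJ values were all above the 3 P values in 415 genes (2.86%) and all below them in 174 (1.2%). The mean was higher in PJ for 9674 genes (66.6%), a share against which the counts of list members given further on are to be read. The median difference over all genes was 0.08 (log2), and it was -0.01 after median-ratio scaling.

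The width of the intervals shows what this comparison could and could not resolve. The 95% confidence interval of the difference had a median half-width of 0.57 on the log2 scale, from 0.39 at the lowest decile of genes to 1.16 at the highest. It lay within -1 and 1 for 10623 genes (73.1%), so that for these a 2-fold difference on the log2(FPKM + 1) scale is outside the interval. It lay within -2 and 2 for 13723 genes (94.4%). For many genes of bone, cartilage and fat, given further on, the interval was wider than that.

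The gene with the smallest p was Hp (ENSRNOG00000014964), which codes for haptoglobin, the plasma protein that binds free haemoglobin. Its FPKM was 5.65, 8.37 and 9.30 in the P libraries and 31.3, 20.9 and 31.0 in the PJ libraries. All 3 PJ values lay above all 3 P values, with means of 27.7 ± 5.94 and 7.77 ± 1.90 (SD, n = 3 each). The difference was 1.71 on the log2(FPKM + 1) scale with a 95% interval of 1.12 to 2.30, and limma gave an unadjusted p of 0.000284 and an adjusted p of 1.00. Without P 2 and PJ 3 the difference was 1.68. The PJ values lay in the range of the OVX libraries (18.8 to 37.5 FPKM) and close to that of the J libraries (21.9 to 29.4), and the P values lay below both.

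In the other direction Rsad2, which codes for the antiviral enzyme viperin and is induced by interferon, had 21.6, 25.9 and 25.9 FPKM in P and 8.40, 6.80 and 13.2 in PJ. The groups did not overlap, and the difference was -1.33 (95% interval -1.91 to -0.74, limma unadjusted p = 0.00124). Of 17 tested members of the interferon response list, 6 were higher in PJ and 11 lower, with a median of -0.03. Rsad2 was the 1 member without overlap, where 1.2% of all genes were lower without overlap. The list level was 3.78, 3.20 and 4.03 in P and 3.46, 3.54 and 3.68 in PJ, so that P 2 lay below all PJ libraries and P 1 and P 3 above them, and without P 2 and PJ 3 the median was -0.39. Cmpk2, a mitochondrial kinase gene that neighbours Rsad2 in mammalian genomes, had 7.07, 8.22 and 6.69 FPKM in P and 4.36, 4.79 and 7.01 in PJ, so that PJ 3 lay among the P values.

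Ltk, Abcb4 and Atp6ap1l were also among the genes of smallest p. Ltk, a receptor tyrosine kinase gene, had 2.54, 3.73 and 2.76 FPKM in P and 0.90, 0.01 and 0.82 in PJ, a difference of -1.39. Abcb4, which codes for a phospholipid transporter, had 9.57, 11.2 and 9.02 FPKM in P against 6.18, 5.07 and 7.01 in PJ, a difference of -0.63. Both sets of 3 were apart for each gene. Atp6ap1l, a gene related to a proton pump subunit, had 1.65, 3.63 and 1.45 FPKM in P and 0.67, 0.48 and 0.10 in PJ. Of the 20 genes of smallest p, 10 in each direction, several were unnamed loci or short transcripts. LOC120095354 had 10, 8 and 10 reads in P and 1, 0 and 2 in PJ, and LOC120098897 had 1.36 to 2.06 FPKM in P and 4.06 to 7.31 in PJ.

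**Figure D2:**
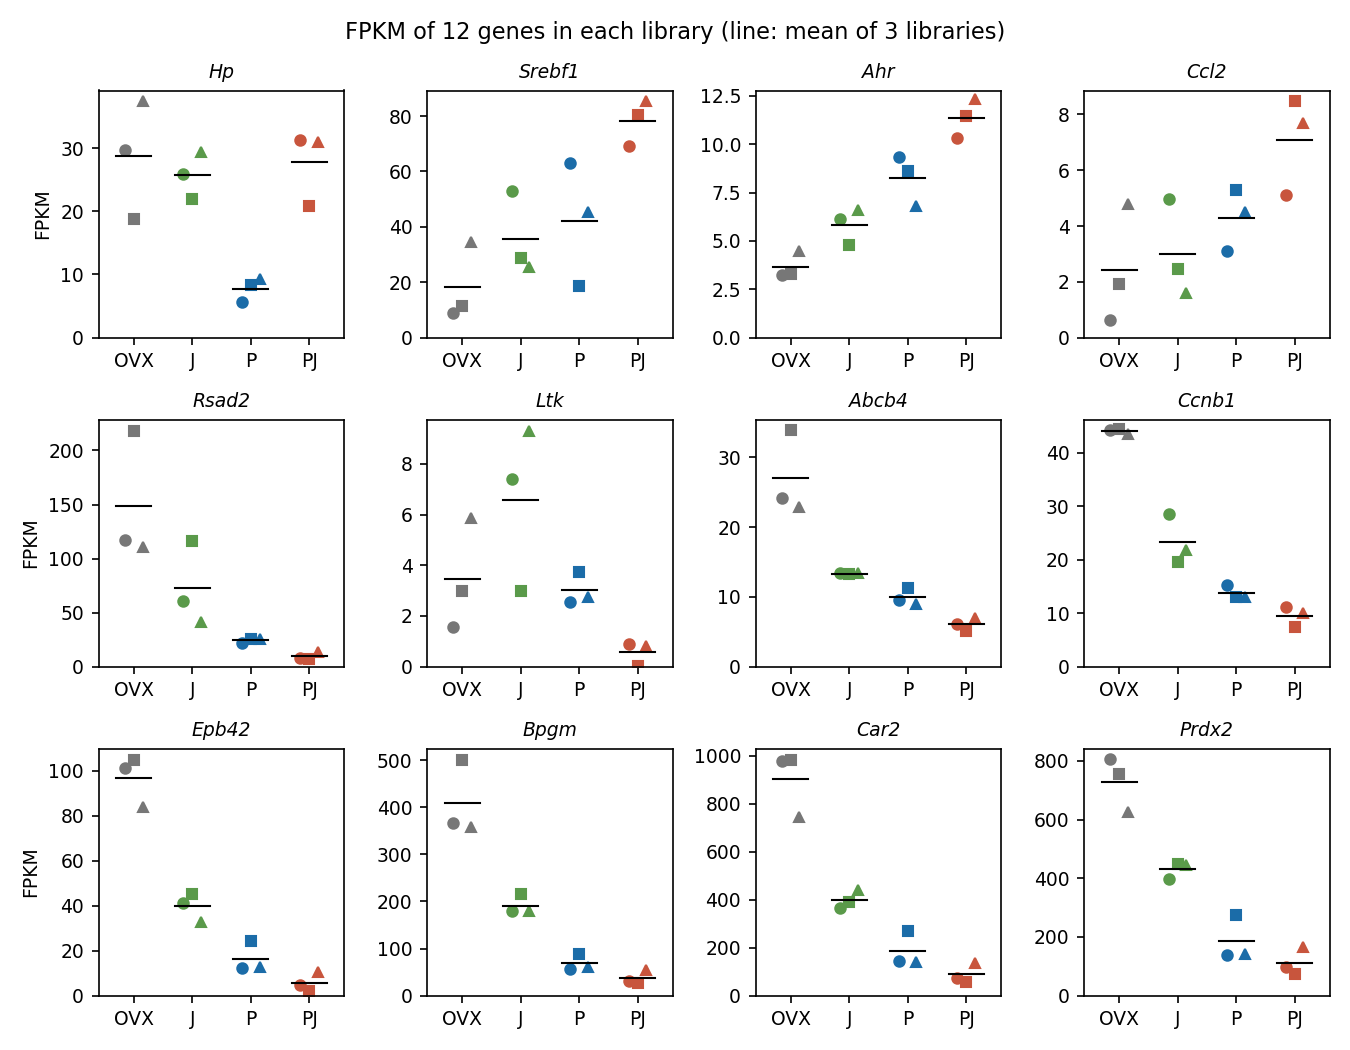
FPKM of 12 genes (vertical axes, from 0) in each library of the OVX, J, P and PJ groups. Symbols are replicates 1 (circle), 2 (square) and 3 (triangle), and lines are means of 3 libraries. Hp is lower in P than in the other 3 groups, while the means of Epb42, Bpgm and Car2, genes of red cells, are highest in OVX and lowest in PJ.

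The genes of small p included 3 microRNA loci. MicroRNAs are short RNAs that pair with messenger RNAs through their seed, bases 2 to 8, and lower their translation or stability. Their mature sequences, from RefSeq (build GRCr8), are shown because they identify the loci, with the seed in capitals:
rno-miR-365-3p (Mir365b): uAAUGCCCcuaaaaauccuuau
rno-miR-365-5p (Mir365b): gAGGGACUuucaggggc
rno-miR-709 (Mir709): gGAGGCAGaggcaagagga
rno-miR-31b (Mir3554): cUAUGCCAgcaucuugccu
No 2 of the 4 share a seed. Mir365b had 13, 18 and 9 reads in P and 30, 100 and 63 in PJ (log2 difference of FPKM 1.57). Mir709 had 12, 22 and 8 reads in P and 0, 0 and 7 in PJ (-1.63), and Mir3554 had 14, 5 and 10 against 3, 2 and 2 (-1.02). The groups did not overlap in FPKM at any of these loci, but all rest on 100 reads or fewer. Libraries of polyadenylated RNA count long transcripts across such a locus and not the mature microRNA.

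Genes of developing red cells had lower means in PJ, with the list level of PJ 3 within the range of the P libraries. All 26 tested members of the erythroid list had a lower mean in PJ than in P, with a median difference of -1.41 (log2), against 0.08 over all genes. Of the 26, 10 had an unadjusted p under 0.05 in limma, where 0.447% of all genes were lower at that level, and none passed after adjustment. The 3 PJ values were all below the 3 P values in 6 of the 26, against 1.2% of all genes. The members were measured in the same libraries, so these counts are not of independent genes. In these bulk libraries fewer red cell precursors and less RNA per cell cannot be told apart.

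Epb42, which codes for protein 4.2 that ties the red cell skeleton to the membrane, had 12.4, 24.2 and 12.6 FPKM in P and 4.69, 2.08 and 10.4 in PJ (difference -1.51, 95% interval -2.71 to -0.30). Bpgm makes bisphosphoglycerate, which lowers the oxygen affinity of haemoglobin, and had 56.9, 88.9 and 61.9 in P and 31.8, 27.2 and 54.0 in PJ (-0.90, -1.63 to -0.17). In both genes P 2 was the highest library, PJ 2 the lowest and PJ 3 the highest of PJ. Further members were named after their values were seen. The groups were also apart for Ermap (-1.63), Hemgn (-1.77) and Tfrc (-0.49), of which Tfrc codes for the transferrin receptor that takes up iron.

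In other erythroid genes PJ 3 lay among the P libraries. Ahsp, the chaperone of alpha globin, had 148.6, 332.2 and 130.7 FPKM in P and 40.3, 16.6 and 150.8 in PJ (difference -1.97). Slc4a1, the anion exchanger of the red cell membrane, had 83.5, 201.1 and 101.4 in P and 30.9, 14.6 and 101.9 in PJ (-1.70). Hba-a1, an alpha globin whose near-identical copies make single values uncertain, had a difference of -1.12 (95% interval -2.85 to 0.61). Epb41 had the smallest difference of the list, -0.08.

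The level of the whole erythroid list, as the mean of log2(FPKM + 1) over its tested members, was 5.06, 6.16 and 5.19 in P and 3.95, 3.24 and 5.31 in PJ. PJ 3 thus lay between P 2 and the other P libraries, and the groups overlapped. In the OVX libraries the same level was 7.73 to 8.09 and in the J libraries 6.79 to 6.99. The median difference between PJ and P was -1.61 without P 2 and PJ 3, -0.98 without P 2 and -0.89 without PJ 2. Car2 and Prdx2, which red cells also express, belong to the osteoclast and antioxidant lists. Car2, a carbonic anhydrase, had 143.5, 271.3 and 140.9 FPKM in P and 73.7, 57.1 and 138.2 in PJ (-1.07, 95% interval -2.05 to -0.09), without overlap. Prdx2, a peroxidase, had 139.5, 275.7 and 140.7 against 97.0, 72.7 and 166.4 (-0.73, -1.69 to 0.23), with PJ 3 above P 1 and P 3.

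GATA1, the master regulator of red cell genes, binds sites with the core GATA. The letters AGATAA, or TTATCT on the other strand, were searched in the 250 bases before the start of each gene in the RefSeq promoter table (build GRCr8), which held 20 of the 26 erythroid genes. They were found in 5 of the 20 (25%), against 5.78% of 10185 tested genes and 10% of all 27457 promoters in the table. The list was chosen as genes of red cells, so these shares describe the list and not the difference between PJ and P. Whether GATA1 plays a part in that difference was not tested. The stretch of Epb42 lacks these exact letters, but it holds agatag, which has the core GATA and was not searched. The last 150 bases before the start are shown for Sptb and Rhd, which hold the searched motif (in capitals), and for Epb42:
Sptb, chr6:101170279-101170428, minus strand: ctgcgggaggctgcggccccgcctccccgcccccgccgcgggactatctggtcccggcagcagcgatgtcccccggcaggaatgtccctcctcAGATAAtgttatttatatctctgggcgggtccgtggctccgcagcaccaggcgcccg
Rhd, chr5:152371050-152371199, plus strand: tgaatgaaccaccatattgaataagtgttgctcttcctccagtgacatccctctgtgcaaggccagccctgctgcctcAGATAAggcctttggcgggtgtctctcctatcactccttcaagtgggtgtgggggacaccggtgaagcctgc
Epb42, chr3:128451684-128451833, minus strand: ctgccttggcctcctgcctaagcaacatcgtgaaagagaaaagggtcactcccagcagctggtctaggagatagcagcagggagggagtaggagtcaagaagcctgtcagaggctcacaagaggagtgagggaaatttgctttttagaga
The motif starts 57 bases before the start of Sptb and 72 before that of Rhd. Sptb, the beta spectrin, had a difference of -1.25 and Rhd, a membrane protein of the Rhesus complex, one of -1.56, close to the -1.51 of Epb42.

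Most platelet, granulocyte and dividing cell genes had lower means in PJ. Of 18 tested megakaryocyte and platelet genes 16 had a lower mean in PJ, with a median of -0.54, and the platelet chemokine gene Ppbp had 70.2, 127.0 and 55.1 FPKM in P and 41.3, 25.9 and 63.9 in PJ. Of 24 neutrophil and granule genes 17 were lower (median -0.21), and of 26 cell cycle genes 22 were lower (median -0.19). Ccnb1, the cyclin that drives entry into mitosis, had 15.2, 13.1 and 13.0 FPKM in P and 11.1, 7.37 and 9.96 in PJ (difference -0.51, 95% interval -0.96 to -0.06). It was the 1 cell cycle gene without overlap, where 1.2% of all genes were lower without overlap. Mki67, the proliferation marker, had 34.2, 36.1 and 27.6 against 23.8, 15.0 and 28.2 (-0.56, -1.18 to 0.05). None of these genes passed the test. Without P 2 and PJ 3 the medians of the platelet, neutrophil and cell cycle lists were -0.78, -0.70 and -0.37. When leaving out each library in turn they ranged from -1.05 (without PJ 3) to -0.21 (without PJ 2) for platelet genes and from -0.49 (without P 2) to 0.11 (without P 3 or PJ 2) for neutrophil genes. The cell cycle median came to about 0 without PJ 2 (0.000635).

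**Figure D3:**
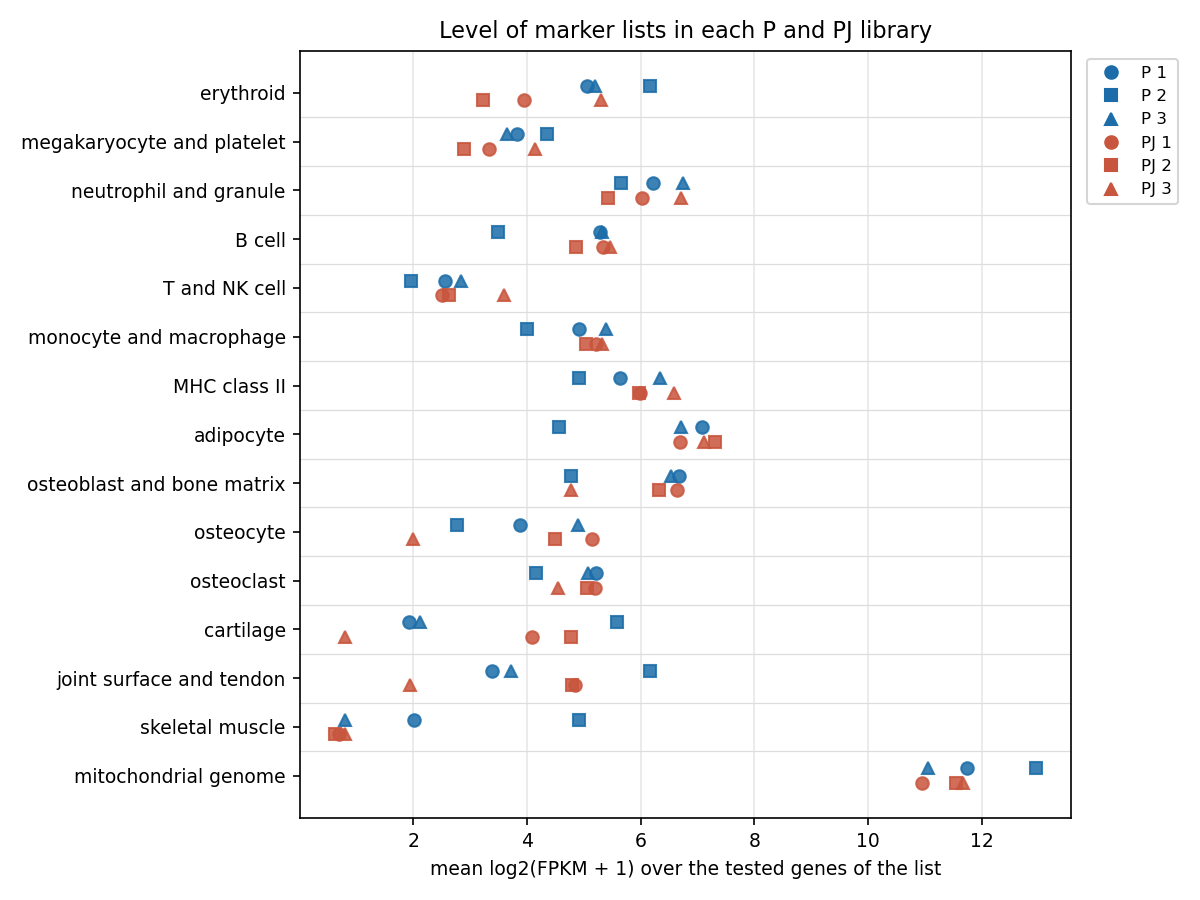
Mean log2(FPKM + 1) over the tested genes of 15 marker lists (horizontal axis) in each P (blue) and PJ (red) library. P 2 is low for fat and B cell genes and high for skeletal muscle, cartilage and mitochondrial genes, PJ 3 is low for cartilage, osteocyte and tendon genes, and the erythroid level is lowest in PJ 1 and PJ 2.

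Fat cell and lymphoid genes had higher means in PJ, with P 2 far below the other 5 libraries in most of them. All 21 tested adipocyte genes had a higher mean in PJ, with a median of 0.87. Adipoq, the fat cell hormone adiponectin, had 1729.7, 162.3 and 1223 FPKM in P and 1104, 1619.8 and 1492 in PJ, so that P 1, P 3 and the 3 PJ libraries overlapped and P 2 lay far below. Pparg, the regulator of fat cell formation, had 31.5, 11.2 and 37.5 against 37.6, 53.3 and 34.2 (0.76). Plin4, a coat protein of lipid droplets, differed by 1.17 and Retn, the fat cell hormone resistin, by 1.20. Without P 2 the median of the list was 0.13, and without P 2 and PJ 3 it was 0.10.

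The same held for lymphocyte and antigen presentation genes. All 24 B cell genes (median 0.45), all 18 tested T and NK cell genes (0.46) and all 8 MHC class II genes (0.59) had a higher mean in PJ, and 18 of 20 monocyte and macrophage genes did (0.42). Without P 2 and PJ 3 these medians were -0.18, -0.06, 0.01 and 0.00. Vpreb1, part of the surrogate light chain of B cell precursors, had 14.7, 3.54 and 14.3 FPKM in P and 18.5, 17.3 and 22.6 in PJ (0.98). It was the 1 B cell gene without overlap, where 2.86% of all genes were higher without overlap. Without P 2 and PJ 3 its difference was 0.28. Cx3cr1, a chemokine receptor of monocytes, had 4.67, 3.57 and 3.74 in P and 5.50, 5.45 and 5.35 in PJ (0.37). Zap70, a kinase of T cell receptor signalling, and RT1-Db1, an MHC class II beta chain, overlapped, with differences of 0.85 and 0.77.

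Skeletal muscle genes had lower means in PJ and were highest in P 2. All 19 tested members had a lower mean in PJ (median -1.78), 4 of them without overlap, where 1.2% of all genes were lower without overlap. The median was -0.70 without P 2 and -0.59 without P 2 and PJ 3. Acta1, the actin of skeletal muscle, had 18.9, 695.3 and 0.97 FPKM in P and 0.39, 0.25 and 0.19 in PJ. Ckm, the muscle creatine kinase, had 6.35, 69.0 and 0.47 against 0.03, 0.14 and 0.11, and Myh4, a fast myosin, had 4.68, 1.96 and 0.09 against 0.01, 0 and 0.07. P 1 and P 2 stood above the other 4 libraries in all 3 genes. The list level was 4.91 in P 2, 2.02 in P 1 and 0.63 to 0.80 in the other 4. Whether muscle attached to the bones of P 1 and P 2 plays a part was not tested.

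Runx2, Sp7, Col1a1 and Bglap, the main genes of bone formation, overlapped between the groups. Runx2, the factor that starts the lineage, had 29.5, 9.94 and 23.3 FPKM in P and 34.4, 24.8 and 15.0 in PJ. Sp7, which acts after it, had 15.1, 6.11 and 21.1 against 14.1, 12.7 and 10.4. Their differences were 0.28 (95% interval -0.80 to 1.37) and -0.04 (-1.02 to 0.95). Col1a1 had 1763, 98.6 and 943.8 FPKM in P and 808.1, 480.6 and 125.8 in PJ (-0.58, -3.40 to 2.23). Bglap, the bone hormone osteocalcin, had 3620.5, 69.6 and 1047 against 1512, 732.2 and 123.0 (-0.32, -4.06 to 3.42). P 2 and PJ 3 were the lowest libraries of their groups for all 4 genes.

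Phospho1, a phosphatase that starts mineralisation, was the 1 osteoblast gene of 19 without overlap, where 1.2% of all genes were lower without overlap. It had 8.23, 9.14 and 8.54 FPKM in P and 6.81, 6.40 and 6.85 in PJ, a difference of -0.33 (95% interval -0.67 to 0.02). Its level was 15.6 to 22.7 FPKM in OVX and 10.4 to 16.4 in J. The difference of Phospho1 between J and OVX was -0.59, where the median of the osteoblast list was 1.18. Which cells of the femur its RNA came from was not tested. Over the osteoblast and bone matrix list 9 genes were higher and 10 lower (median -0.04), and over the 13 osteocyte genes 8 were higher and 5 lower (0.18). Sost, the sclerostin of osteocytes that restrains bone formation, had 31.3, 1.66 and 317.2 FPKM in P and 232.9, 135.0 and 3.36 in PJ, with an interval of -4.23 to 5.79. Esr1, the estrogen receptor alpha, was at 0.73 to 2.04 FPKM in P and 0.56 to 2.08 in PJ (-0.12, -0.94 to 0.69).

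The main osteoclast genes, other than Car2 given above, also overlapped. Ctsk, the collagen-degrading cathepsin K, had 1669, 322.1 and 1166 FPKM in P and 1789, 1929 and 726.7 in PJ (0.67, 95% interval -1.03 to 2.37). Acp5, the osteoclast acid phosphatase, had 454.0, 146.1 and 370.7 against 546.0, 503.9 and 259.9 (0.51, -0.70 to 1.73). Tnfsf11 codes for RANKL, which drives osteoclast formation, and had 9.61, 2.37 and 8.31 in P and 21.4, 12.2 and 4.72 in PJ (0.78, -0.70 to 2.27). Tnfrsf11b codes for its decoy receptor osteoprotegerin and had 11.5, 114.5 and 12.8 against 36.7, 45.1 and 0.80 (-0.89, -4.33 to 2.55). Of 18 osteoclast genes 12 were higher and 6 lower (median 0.17), a share close to the 66.6% of all genes higher in PJ. Car2 was the 1 member without overlap, where 1.2% of all genes were lower without overlap.

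**Figure D4:**
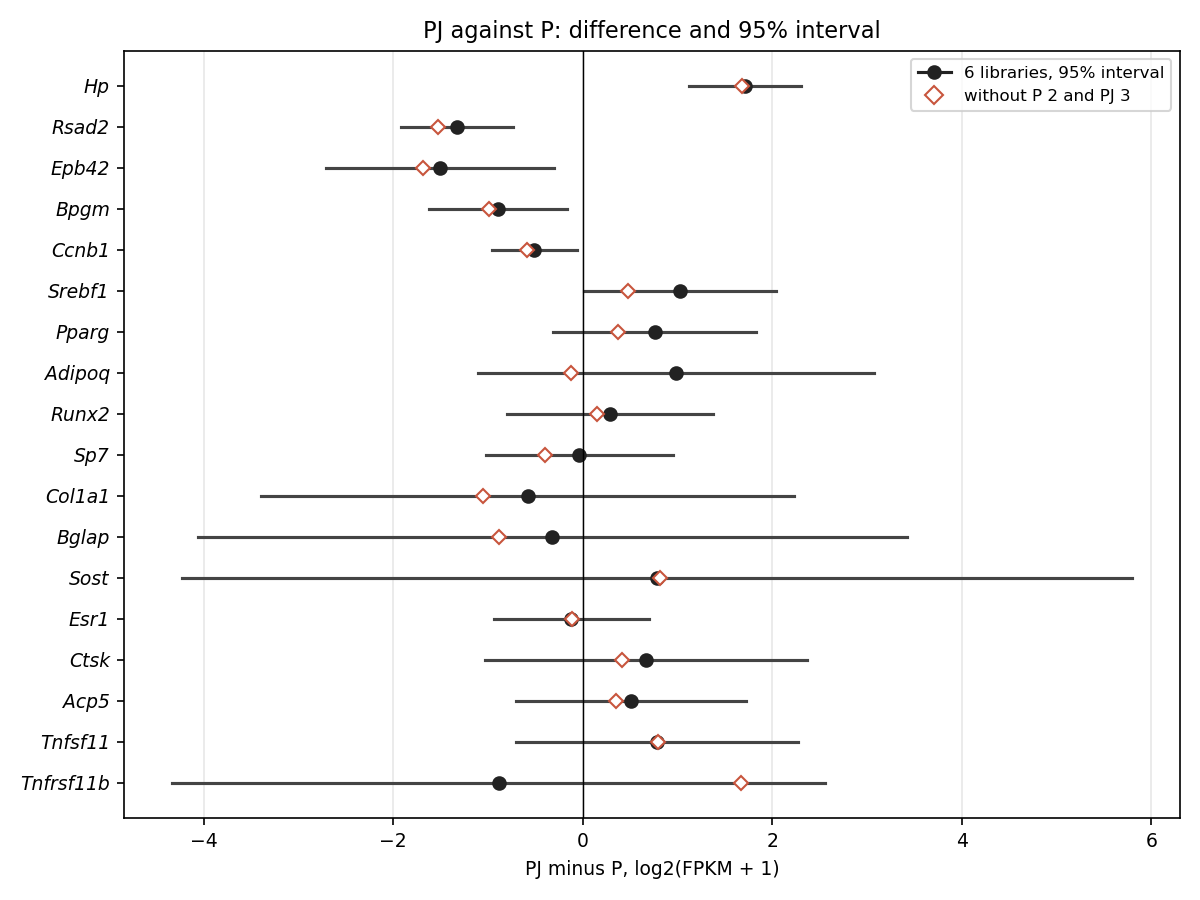
Difference between PJ and P on the log2(FPKM + 1) scale (horizontal axis) for 18 genes, with the 95% confidence interval from limma on 6 libraries (dot and line) and the difference without P 2 and PJ 3 (open diamond). The intervals of the lower 12 genes, of fat, bone and osteoclasts, all include 0, and that of Sost reaches from -4.23 to 5.79.

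Cartilage genes varied widely within both groups. Acan, the aggrecan core protein, had 0.87, 140.6 and 1.60 FPKM in P and 41.7, 51.6 and 0.01 in PJ. Col10a1, the collagen of hypertrophic cartilage, had 0.24, 378.1 and 0.51 against 91.7, 59.5 and 0.35. P 2, PJ 1 and PJ 2 thus held transcripts of both genes at levels far above those of P 1, P 3 and PJ 3. Not all members of the list varied in this way. Col11a2 had 67.7, 74.8 and 30.4 FPKM in P and 57.1, 40.0 and 7.01 in PJ. Col11a1 had 16.3, 26.5 and 12.1 against 14.6, 16.1 and 0.70, and Matn4 had 2.18, 0.68 and 2.30 against 0.92, 1.20 and 0.91. The median of 15 cartilage genes was 0.18 over the 6 libraries and 2.7 without P 2 and PJ 3. Joint surface and tendon genes (12 of 12 lower in PJ, median -0.53) had a median of 1.04 without these libraries, and genes of interstitial matrix (19 of 25 lower, -0.28) one of 0.26.

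Leaving out P 2 and PJ 3 was also the setting in which genes passed the test, with 2 libraries a group and 2 residual degrees of freedom. In that fit 6 of 14530 genes were called. Higher in PJ were Scrg1 (4.17), Col10a1 (5.77), Serpina3a (3.20), Ecrg4 (4.18) and Acan (4.43), with limma adjusted p of 0.0187 to 0.0203. The gene ENSRNOG00000065459, which has no name in the files, was lower at 36.6 and 43.3 FPKM in P 1 and P 3 and 0.54 and 1.08 in PJ 1 and PJ 2, but had 0 in P 2 and 6.91 in PJ 3. In the libraries left out, the other 5 genes were highest of all 6 in P 2, and lowest of all 6 in PJ 3 except for Col10a1, where P 1 was lower. For Ecrg4, a secreted peptide precursor, P 2 had 1187 FPKM and PJ 3 1.73, against 273.7 and 290.7 in the other PJ libraries. How much cartilage was in each sample and the treatment cannot be told apart for these genes.

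Other pathways gave few differences without overlap. Srebf1, the regulator of fatty acid synthesis, had 62.9, 18.7 and 45.2 FPKM in P and 69.2, 80.4 and 85.4 in PJ (1.03, 95% interval 0.02 to 2.04). Of the genes of cholesterol and fatty acid synthesis, 21 of 24 were higher (median 0.16). Without P 2 and PJ 3 the difference of Srebf1 was 0.48 and the median of that list was 0.05. Ahr, the aryl hydrocarbon receptor that senses many plant compounds, had 9.32, 8.63 and 6.79 FPKM in P and 10.3, 11.4 and 12.3 in PJ (0.43, 0.01 to 0.84). Its list with NRF2 targets had 11 genes higher and 5 lower (0.15), near the share of all genes. Chac1, a glutathione-degrading enzyme of the unfolded protein response, had 2.11, 1.35 and 2.82 against 6.16, 3.27 and 3.22 (0.73), and 13 of 15 genes of that response were higher (0.23).

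Of 18 immediate early and stress genes 15 were higher in PJ (median 0.36), and Nr4a1, a nuclear receptor of that class, had 5.08, 28.3 and 31.9 FPKM in P and 57.8, 39.4 and 34.0 in PJ (1.27). Ccl2, the monocyte chemoattractant, had 3.11, 5.29 and 4.50 against 5.11, 8.47 and 7.70 (0.61), and 15 of 16 inflammatory genes were higher (0.29), but the median of that list was -0.03 without P 2 and PJ 3. Among Wnt pathway genes 22 of 30 were higher (0.21), near the share of all genes. Tcf7l2, which carries the signal to its target genes, had 10.8 to 15.1 FPKM in P and 15.8 to 20.5 in PJ. It was the 1 member without overlap, where 2.86% of all genes were higher without overlap. Its difference was 0.38, and 0.14 without P 2 and PJ 3. All 13 genes of the mitochondrial genome were lower (-0.52), and their median was -0.12 without P 2 and PJ 3.

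Walnut was also given without Psoralea, which allows its difference on top of Psoralea (PJ minus P) to be set beside its difference alone (J minus OVX). The pairs share no library. Whether the first difference departs from the second was tested for 14321 genes over the 12 libraries, and limma called 0 (0%). The smallest adjusted p was 0.0651, and 1261 genes had an unadjusted p under 0.05. Voom was not run on this contrast. Across genes the correlation of the 2 differences was 0.24 (Pearson) and 0.26 (Spearman), and 61.2% had the same sign. These values describe genes, which are not independent replicates and share the same 12 libraries.

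Erythroid genes had a median of -1.07 for walnut alone and -1.41 on top of Psoralea, and platelet genes of -1.37 and -0.54. Adipocyte genes had 1.45 and 0.87. Interstitial matrix genes had 1.55 for walnut alone and -0.28 on top of Psoralea, and skeletal muscle genes had 0.40 and -1.78. Without P 2 and PJ 3 the values on top of Psoralea were 0.26 for matrix genes and -0.59 for muscle genes. When leaving out each library in turn, the matrix median was above 0 only without PJ 3 (0.25). The opposite sign of the matrix genes thus rests on PJ 3. For Hp the difference was -0.11 for walnut alone and 1.71 on top of Psoralea, a departure that limma did not call. Efna1, an ephrin ligand, shows values on which the largest departures rested. It had 2.91, 2.51 and 2.65 FPKM in OVX and 8.35, 8.92 and 9.55 in J, but 16.9, 21.8 and 14.8 in P and 14.4, 17.0 and 15.5 in PJ. The departure was -1.60 (95% interval -2.06 to -1.13) with a limma adjusted p of 0.0842, and Efna1 was named after its values were seen.

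**Figure D5:**
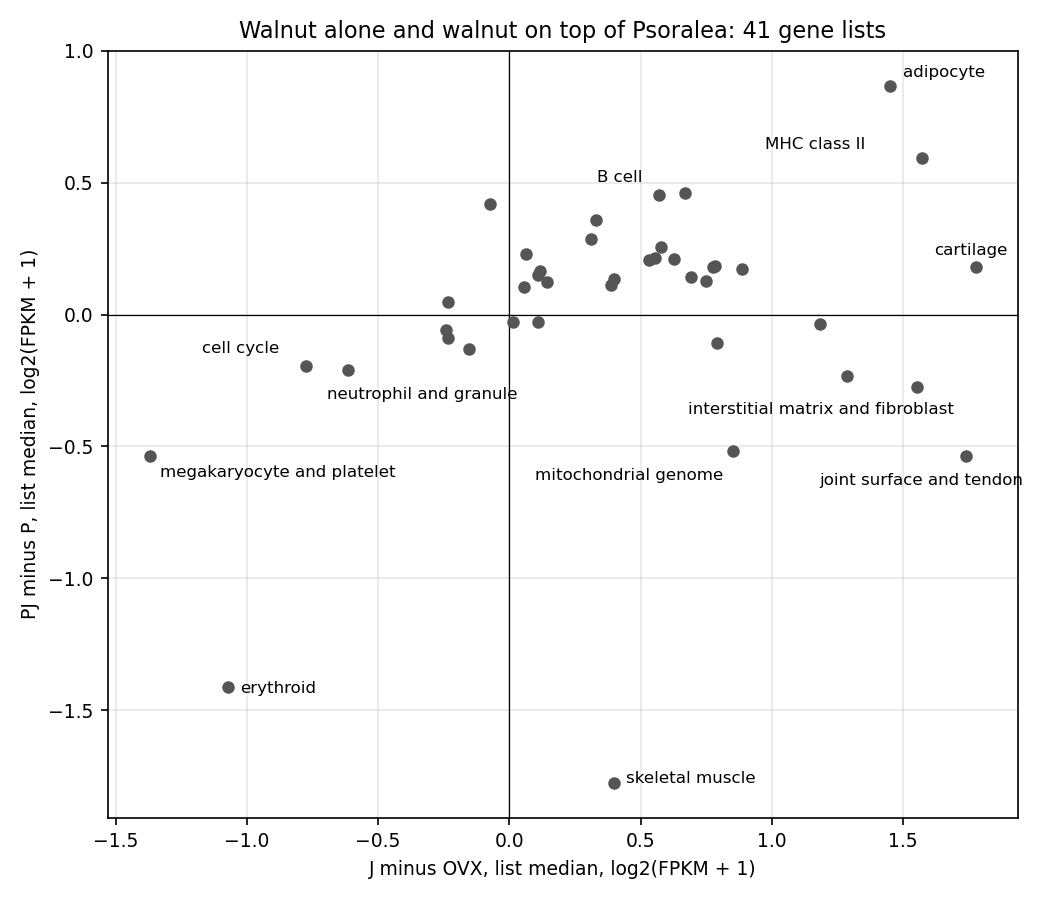
Median difference of each of 41 gene lists for walnut alone (J minus OVX, horizontal axis) and for walnut on top of Psoralea (PJ minus P, vertical axis), both on the log2(FPKM + 1) scale. Erythroid genes lie below 0 on both axes (-1.07 and -1.41) and adipocyte genes above 0 on both (1.45 and 0.87), while joint, matrix and muscle genes lie above 0 for walnut alone and below 0 on top of Psoralea. Without P 2 and PJ 3 the joint (1.04) and matrix (0.26) medians on top of Psoralea were above 0.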

How the data were processed

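Polyadenylated RNA of rat femurs was sequenced. The submitters' processing notes list build mRatBN7.2, featureCounts 2.0.6, STAR 2.7.11a and fastp 0.23.4. The strand setting is not given in the sources. The deposited files hold 1 value per gene for 30454 genes (4319 without a name). The column that the authors named count holds FPKM, as its values show, and the column named FPKM is empty per the file headers. Depth was recovered from the steps of the deposited FPKM values, in a unit that may be single ends of a read pair.

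Values were analysed as log2(FPKM + 1), which understates differences of low genes. Genes with a mean of at least 1 FPKM over the 6 libraries were fitted with limma 3.58.1 in R 4.3.3 (eBayes with trend, 4 residual degrees of freedom, two-sided, Benjamini-Hochberg over all genes, threshold 0.05). The departure of PJ minus P from J minus OVX was fitted on 12 libraries. The script was tested on simulated data. Alternatives were a pseudocount of 0.1, other filters, TPM, median-ratio scaling, removal of mitochondrial and globin genes, array weights, a replicate block, all 15 libraries in the fit, eBayes settings and leaving out libraries. Voom on recovered reads was added after the data were seen.

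The 41 gene lists (766 distinct genes, 743 found) and the members were chosen with earlier results of these data known. The rule for named genes took the 10 with the smallest p each way (as fewer than 5 passed), up to 3 of smallest p in each list, a fixed set of 12 genes of bone, osteoclasts and fat, and the genes farthest from the other libraries in each library. Other names were added after their values were seen: Ermap, Hemgn, Tfrc, Ahsp, Slc4a1, Hba-a1, Epb41, Sptb, Rhd, Efna1, Chad, Sstr3 and the genes called without P 2 and PJ 3. Lists are described by counts and medians, without a set test. Some items are not reported here. Replicate numbers were not used to pair the libraries, other than in the replicate block.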

Additional observations from a re-analysis of the deposited data

How the results depend on the processing

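The count of genes called between PJ and P was 0 in every alternative except the one without P 2 and PJ 3, in which it was 6. Array weights gave the most genes at an unadjusted p under 0.05, 1452. For the departure of PJ minus P from J minus OVX, the count was 2 with a pseudocount of 0.1 (Efna1 and the unnamed gene ENSRNOG00000064136), 1 with median-ratio scaling (the unnamed gene), and from 0 to 1 when leaving out each library, where Sstr3 was called without PJ 3. TPM scaling moved the median of all genes from 0.08 to 0.18 for PJ minus P and from 0.00 to 0.14 for the departure. A replicate block called 0 genes in both comparisons, with 161 genes of PJ against P at an unadjusted p under 0.05. Same-numbered libraries had correlations of their deviations of -0.24, 0.00 and -0.04. With 3 libraries a group, these values cannot tell whether the numbers mark a shared batch.

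The erythroid median ranged from -1.99 to -0.89 when leaving out each library and from -1.67 to -1.35 under the other alternatives. The adipocyte median ranged from 0.13 to 1.34 and the skeletal muscle median from -2.63 to -0.70 when leaving out each library. With array weights the adipocyte median was -0.02 and the skeletal muscle median was -0.96. The latter was -2.82 with a pseudocount of 0.1 and with voom.

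Of 66 genes followed, 17 turned direction in at least 1 alternative, none of them called in the 6 libraries. Without P 2 and PJ 3, Adipoq was at -0.12, Tnfrsf11b at 1.67, Ecrg4 at 4.18, Chad at 3.66 and Sstr3 at -0.67. With array weights, Adipoq was at -0.16, Esr1 at 0.13, Tnfrsf11b at 1.27, Ecrg4 at 3.69, Chad at 3.19 and Sstr3 at -0.54. TPM scaling turned Epb41 to 0.018 and Sp7 to 0.064, and voom turned Acan to -0.84. When leaving out each library in turn, the differences ranged from -0.27 to 0.16 for Epb41, -0.51 to 0.31 for Sp7, -0.068 to 1.63 for Adipoq, -0.40 to 0.095 for Esr1, -1.72 to 0.62 for Tnfrsf11b, -1.31 to 2.10 for Ecrg4, -1.71 to 1.78 for Chad and -0.63 to 0.48 for Sstr3. They ranged from -0.55 to 2.58 for Acan, -0.28 to 3.84 for Col10a1, -0.35 to 2.63 for Scrg1, -0.59 to 1.93 for Serpina3a, -1.81 to 0.26 for Col1a1, -1.92 to 0.92 for Bglap, -0.15 to 0.59 for Runx2, -0.97 to 2.57 for Sost and -0.038 to 1.15 for Ctsk. The cause was not tested. Hp, Rsad2 and all erythroid genes followed other than Epb41 kept their direction in every alternative in which they were tested.

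A floor of 3 reads corresponds to 0.0492 to 0.0777 reads per 1000000 in the 6 libraries, which covers counting error only. The PJ libraries all lay at or under 3 reads at Mir3554 and LOC120095354. Some PJ libraries did so at other named genes, such as PJ 1 and PJ 2 at Mir709 (0 reads) and PJ 2 at Ltk (2 reads).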

Other observations

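Some genes differed widely between libraries of one group. Fam111a, which codes for a protease that restricts viral replication, had 112.7, 71.5 and 107.1 FPKM in P and 6.42, 73.4 and 6.53 in PJ, so that PJ 2 lay with the P libraries and PJ 1 and PJ 3 lay far below. Prg3, an eosinophil granule protein, had 0.11, 0.61 and 62.7 FPKM in P and 36.9, 19.2 and 0.66 in PJ. Ear1, another member of the mast cell, basophil and eosinophil list, varied in the same way. It had 0.28, 0 and 18.4 FPKM in P and 12.1, 5.17 and 0 in PJ. Igfbp2, a binding protein of insulin-like growth factors, had 0.83, 21.6 and 135.5 FPKM in P and 0.55, 0.67 and 15.0 in PJ. None of these genes passed the test, and all were picked for how far a library lay from the others.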
